A study of Mus musculus with 11 samples.

Results

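Gene expression was compared between the dorsal root ganglia of old and young mice after the sciatic nerve had been crushed. The members were the 3 old and the 3 young arrays labelled pre-conditioned, chosen by their titles, which are 6 of the 11 arrays of the series. Total RNA came from the L4 and L5 ganglia of C57/BL6 mice, 24 months old in the old group and 2 months old in the young group, taken 5 days after crush at both ages, and was measured on Illumina bead arrays. The uninjured ganglia of the same series, labelled naive and taken at day 0 from 3 young and 2 old samples, serve here as the comparison without crush. No group had a sham operation, and all groups share the strain and tissue. The wording of the days in the series design is ambiguous and was read as day 0 for naive and day 5 for pre-conditioned. Neither separate animals nor pools are stated for the arrays of a group, and p-values therefore reflect only sample-to-sample spread, possibly technical.

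Dorsal root ganglia hold the cell bodies of sensory neurons, wrapped by satellite glia, among Schwann cells, fibroblasts, vessels and resident macrophages. Crush of the peripheral branch switches on a growth program in the neurons, with transcription factors such as Atf3 and Jun, and draws macrophages and granulocytes into the ganglion. A peripheral injury that precedes another lesion is known as a conditioning lesion. The comparison asks which genes differ with age once that response is under way. In RNA from whole ganglia, fewer cells of a type and less RNA per cell cannot be told apart.

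The arrays differed in brightness, and the brightest held both ages. The median intensity before normalization was 203, 252 and 296 on young crush 1, 2 and 3 and 285, 187 and 185 on old crush 1, 2 and 3. Old crush 1 correlated least with the other arrays of its group (mean 0.984) and lay apart at 27.1 on the first principal component (47.7% of the variance), which did not separate the ages. The second component (18.1%) did, with young arrays between 5.36 and 12.2 and old arrays between -9.37 and -5.60. Young crush 3 carried a high level of skeletal muscle genes. The mean level of the 14 measured muscle markers, relative to the young crush mean on the log2 scale, was 0.91 there, against -0.35 and -0.55 on young crush 1 and 2 and -0.55 to -0.40 on the old crush arrays. The labelled tissue was checked against its markers. The sensory neuron genes Prph, Isl1 and Nefh lay at high percentiles of all probes in both groups, the lowest being Isl1 at 97.2 in young and 97.3 in old, and the myelin gene Mbp lay at 99.7 in both.

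After crush, limma called 27 of 11529 genes as different between the ages (0.234%) at the adjusted threshold of 0.05. Of these, 14 were higher in old (0.121%) and 13 lower (0.113%), and 10 differed at least 2-fold, 5 in each direction. Without background correction, and in the authors' nearly equal processed values, 4 of those 10 still differed at least 2-fold (Ccl8, Gpnmb, Pmp2 and Lox). Median scaling in place of quantile normalization called 12, of which 8 were higher and 4 lower. In every planned setting that tested them 10 genes were called: Ccl8, Gpnmb, Csprs, Azgp1, Acer2, Vmn1r181, Mgarp, Cd209b, Pmp2 and Col26a1. Each of the others lost its call under median scaling, with only the 2 groups fitted, or in both. A stricter filter, which asks for brightness above the 60th percentile on every array, tested only Gpnmb and Pmp2 of those 10. Csprs, Azgp1, Mgarp and Cd209b were dim in young ganglia. They may have passed the main filter only through the old arrays, where they were higher. On all 27 the old and young arrays did not overlap, against 9.27% of all genes. At an unadjusted p under 0.05 the count was 657 genes (5.7%), 362 higher (3.14%) and 295 lower (2.56%). Differences below are old minus young on the log2 scale of normalized intensity with the standard error of the fit, so that 1 is a doubling, and n is 3 arrays at each age. By what each is known for, the 14 higher genes were the chemokine gene Ccl8, 2 phagocyte genes, 3 granulocyte genes, 4 genes of lipid, steroid or mitochondrial metabolism and 4 members of families of related gene copies. The 13 lower genes included 4 of the matrix, 2 of smooth muscle or vessels and 2 of glia, with Ly86, Hoxb5, Dbp, Tyrp1 and Bex4 as the rest. These groupings were made after the calls were seen and were not tested.

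**Figure D1:**
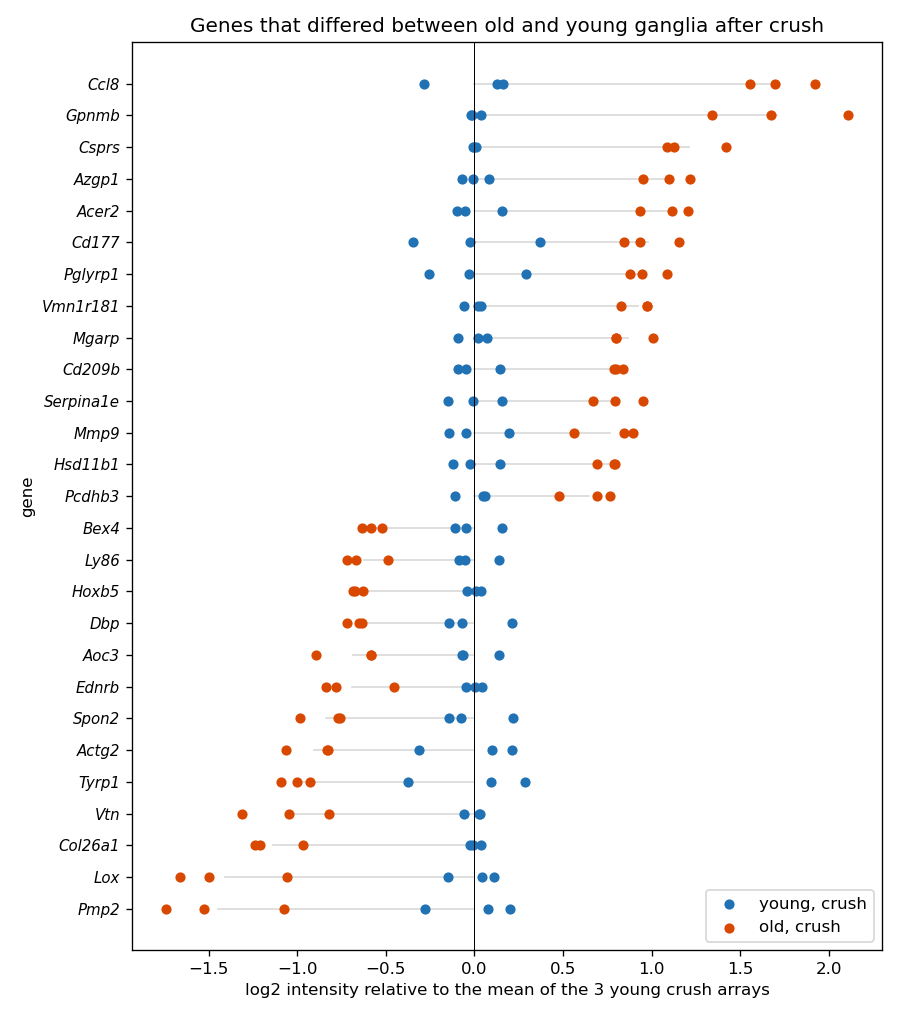
Log2 intensity of the 27 genes past the threshold on the 3 young (blue) and 3 old (orange) crush arrays, each relative to the mean of the young crush arrays; a grey line joins the 2 means. No gene has an old point within the young range, and the differences run from -1.45 for Pmp2 to 1.73 for Ccl8.

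Promoter sequence is shown for 4 of the 27 genes, chosen as the chemokine gene with the largest increase, 2 granulocyte genes that were higher in old ganglia together, and the pigment gene that was lower. Each is the 250 bases before the annotated start in RefSeq, build GRCm38.p6, where 17 of the 27 genes had a window. Capitals mark matches, on either strand, to GAGGAA (the core bound by PU.1, a transcription factor of macrophages and granulocytes), TTNNGNAAT (bound by C/EBP factors), CATGTG (the core of the M-box bound by the pigment cell factor Mitf) or TATAAA (the TATA box). The windows are chr11:82114935-82115184 (plus strand) for Ccl8, chr7:18884440-18884689 (plus) for Pglyrp1, chr7:24760312-24760561 (minus) for Cd177 and chr4:80833963-80834212 (plus) for Tyrp1.
Ccl8: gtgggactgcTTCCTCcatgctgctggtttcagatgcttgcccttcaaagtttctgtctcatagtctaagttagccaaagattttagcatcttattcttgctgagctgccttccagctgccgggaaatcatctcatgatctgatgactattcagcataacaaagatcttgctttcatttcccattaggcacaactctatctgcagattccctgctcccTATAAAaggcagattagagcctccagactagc
Pglyrp1: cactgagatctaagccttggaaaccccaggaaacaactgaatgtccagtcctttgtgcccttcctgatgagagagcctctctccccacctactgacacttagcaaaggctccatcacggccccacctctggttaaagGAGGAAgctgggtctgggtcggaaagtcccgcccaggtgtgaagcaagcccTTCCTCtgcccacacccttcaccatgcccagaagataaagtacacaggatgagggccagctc
Cd177: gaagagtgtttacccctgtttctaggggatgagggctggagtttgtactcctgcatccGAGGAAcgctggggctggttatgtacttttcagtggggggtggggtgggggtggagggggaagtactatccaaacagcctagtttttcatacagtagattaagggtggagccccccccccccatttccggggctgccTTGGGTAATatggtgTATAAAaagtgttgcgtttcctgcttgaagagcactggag
Tyrp1: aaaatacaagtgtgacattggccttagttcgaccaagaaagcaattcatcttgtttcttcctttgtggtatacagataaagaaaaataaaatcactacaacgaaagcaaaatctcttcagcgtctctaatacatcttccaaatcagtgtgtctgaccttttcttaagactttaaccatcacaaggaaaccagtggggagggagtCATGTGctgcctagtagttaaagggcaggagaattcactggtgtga
In Ccl8 the GAGGAA match lies 240 to 235 bases before the start and the TATAAA match 32 to 27 bases before it. Pglyrp1 has GAGGAA matches at 113 to 108 and at 62 to 57 bases before the start. Cd177 has one at 192 to 187 bases, a C/EBP match at 55 to 47 bases, and a TATAAA match at 40 to 35 bases. The CATGTG match of Tyrp1 lies 46 to 41 bases before the start. Among the 17 genes, 6 held GAGGAA, 3 TTNNGNAAT, 2 CATGTG, 3 TATAAA and 1 the E-box CACGTG, which the clock factors bind. The corresponding shares of 27025 genes with a window were 23.1%, 10.3%, 12.2%, 13.0% and 6.05%. A search for the interferon-stimulated response element found it in 0 of the 17 windows and in 3.04% of all.

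The chemokine gene Ccl8 and the phagocyte gene Gpnmb gave the largest increases with age. Ccl8, a chemokine that attracts monocytes and other leukocytes, measured 9.28, 8.87 and 9.31 in young and 10.85, 11.08 and 10.71 in old crushed ganglia. Every old array thus lay more than 1 log2 unit above every young array. The difference was 1.73 ± 0.15 (3.31-fold, limma adjusted p = 0.000308). Gpnmb, a glycoprotein of phagocytes and pigment cells that is bound to lysosomes, measured 9.13, 9.08 and 9.08 in young and 10.44, 11.21 and 10.77 in old. Its young arrays were nearly equal and all old arrays higher, by 1.71 ± 0.18 (3.27-fold, adjusted p = 0.00212). Other probes of Gpnmb were dimmer: one that passed the intensity filter gave 0.63 ± 0.17 and did not pass the test, and 2 below the filter gave -0.07 and -0.08. Cd209b, a lectin receptor of macrophages, was higher by 0.81 ± 0.11 (adjusted p = 0.00819), from a dim level of 6.18 to 6.42 in young to one of 7.06 to 7.11 in old. The difference of Cd209b was 0.45 without background correction, and 2 probes below the filter gave 0.19 and 0.33. Ly86, which encodes MD-1, the partner of the Toll-like receptor homologue RP105, went the other way, by -0.63 ± 0.10 (adjusted p = 0.0272). Its levels were 12.52, 12.71 and 12.49 in young and 11.86, 12.08 and 11.90 in old. Ccl8, Gpnmb and Cd209b stayed past the threshold when any of the 11 arrays was left out. The call of Ly86 was lost without young naive 2 or 3, young crush 1 or 2, or old crush 3, with differences from -0.69 to -0.56 over all such fits.

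No other macrophage marker was called. Of 20 measured macrophage markers Gpnmb alone passed, and the median difference was 0.05, against 0.01 over all genes. At an unadjusted p under 0.05, 3 were higher and 1 lower, against 3.14% and 2.56% of all genes. Their summed level on the log2 scale was 14.90 to 15.01 in young and 15.07 to 15.30 in old. The mean level relative to the young crush mean overlapped, at -0.11 to 0.09 in young and 0.02 to 0.26 in old. The lysozyme gene Lyz2 measured 0.37, the lipid sensor gene Trem2 0.36 and the fractalkine receptor gene Cx3cr1 -0.34, none past the adjusted threshold. Among 28 chemokines and cytokines 1 passed, Ccl8. At an unadjusted p under 0.05, 6 were higher and 0 lower, where 3.14% and 2.56% of all genes were. Next after Ccl8 came the B cell chemokine gene Cxcl13 with 1.14 ± 0.28 (adjusted p = 0.215). On its arrays the values were 6.35, 6.74 and 6.12 in young and 7.18, 7.12 and 8.33 in old, with old crush 3 the highest. Of 9 complement genes none passed. C4b, which encodes a component of the classical pathway, came nearest with 0.59 ± 0.12 (adjusted p = 0.0854), at 10.85 to 10.97 in young and 11.46 to 11.55 in old.

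Among genes of granulocytes 3 were called, all higher in old, and most others leaned the same way. Pglyrp1, a peptidoglycan recognition protein stored in neutrophil granules, measured 7.52, 7.75 and 8.07 in young and 8.73, 8.66 and 8.87 in old. That is a difference of 0.97 ± 0.14 (adjusted p = 0.0118). Cd177, a neutrophil surface glycoprotein, measured 7.13, 6.81 and 7.52 in young and 8.09, 8.0004 and 8.31 in old, a difference of 0.98 ± 0.17 (adjusted p = 0.0367). Another probe of Cd177 gave 0.44 and did not pass. Mmp9, the gelatinase of neutrophil granules, measured 7.47, 7.56 and 7.80 in young and 8.17, 8.503 and 8.45 in old, a difference of 0.77 ± 0.12 (adjusted p = 0.0184). In each of the 3 genes young crush 3 was the highest young array, and still below every old one. Without injury the levels of all 3 lay between 6.31 and 7.60, below every crush array of the same age. Crush raised Mmp9 by 0.87 in old ganglia (adjusted p = 0.000825), whereas the rise of 0.26 in young ganglia did not pass (adjusted p = 0.16).

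Mmp9 was the 1 called gene among 13 measured neutrophil markers, a list that does not hold Pglyrp1 or Cd177. All 13 had differences above 0, where 52.3% of all genes did, and 11 were higher at an unadjusted p under 0.05, against 3.14% of all genes. The median difference was 0.82. Lcn2, the granule protein lipocalin 2, measured 8.79, 8.96 and 9.81 in young and 10.28, 10.90 and 11.08 in old, a difference of 1.57 ± 0.29 that missed the threshold (adjusted p = 0.0693). Other granule genes gave 1.24 for Ngp, 1.15 for lactoferrin, Ltf, 1.14 for myeloperoxidase, Mpo, and 0.73 for neutrophil elastase, Elane. The surface receptor genes gave less, with 0.23 for the chemokine receptor Cxcr2 and 0.08 for Csf3r, the receptor of granulocyte colony-stimulating factor. Neither passed at an unadjusted p under 0.05, and the listed markers Ly6g and Mmp8 were not among the genes tested.

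Over the arrays, the mean level of the 13 neutrophil markers relative to the young crush mean was -0.22, -0.24 and 0.46 in young and 0.61, 1.00 and 0.95 in old. The groups did not overlap, but young crush 3 lay close to old crush 1. Without injury the mean level was between -1.02 and -0.67 in young and was -0.98 and -0.35 in old, and the median age difference of the list was 0.14. Leaving out young crush 3 gave a median of 1.04 and 5 called genes (Elane, Lcn2, Mmp9, Mpo and Ngp), leaving out old crush 1 a median of 1.03 and 2 called genes (Lcn2 and Mmp9). Without both arrays the median was 1.25, and 6 genes were called, those 5 and Chil3. Pglyrp1 missed the threshold without young crush 1, young crush 2 or old crush 3 (0.84 to 1.11 when single arrays were left out). Mmp9 missed it without any one of young crush 1 and 2 and old crush 2 and 3 (0.70 to 0.87). Cd177 kept it only without young crush 3 or old crush 1 (0.81 to 1.16). Of 5 measured red blood cell genes, which come with blood in the tissue, none passed, 2 had differences above 0, and the median was -0.19. Slc4a1, the anion exchanger of the red cell membrane, had the smallest p. It measured 8.49, 8.39 and 9.22 in young and 9.26, 10.34 and 9.10 in old, a difference of 0.87 ± 0.40 (adjusted p = 0.876), which was 1.12 without young crush 3 and 1.28 without both bright arrays. Relative to the young crush mean, their mean level was 0.01, 0.17 and -0.17 in young and -0.24, 0.66 and -0.35 in old, with the α-globin gene Hba-a1 at 14.71 to 14.96 and 14.24 to 15.04. Old crush 2 was the highest crush array for both lists, and the part of blood in the neutrophil difference was not tested.

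Mast cell genes leaned the same way, with 0 of 7 called by limma. All 7 measured markers had differences above 0, 6 of them with an unadjusted p under 0.05, and the median was 0.43 (0.22 without injury). The shares of all genes were 52.3% above 0 and 3.14% higher at that unadjusted p. Hdc, which makes histamine, measured 9.40, 9.37 and 9.40 in young and 9.85, 9.82 and 9.69 in old, a difference of 0.40 ± 0.10 (adjusted p = 0.196). The mast cell protease gene Cma1 gave 0.68 ± 0.16 (adjusted p = 0.167). Mast cell markers were highest on old crush 1, where their mean level was 0.76, against 0.27 and 0.35 on the other old arrays and -0.11 to 0.10 in young. Without that array 3 of the 7 had an unadjusted p under 0.05, with a median of 0.37, and without young crush 3 the count was 4, with a median of 0.51.

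**Figure D2:**
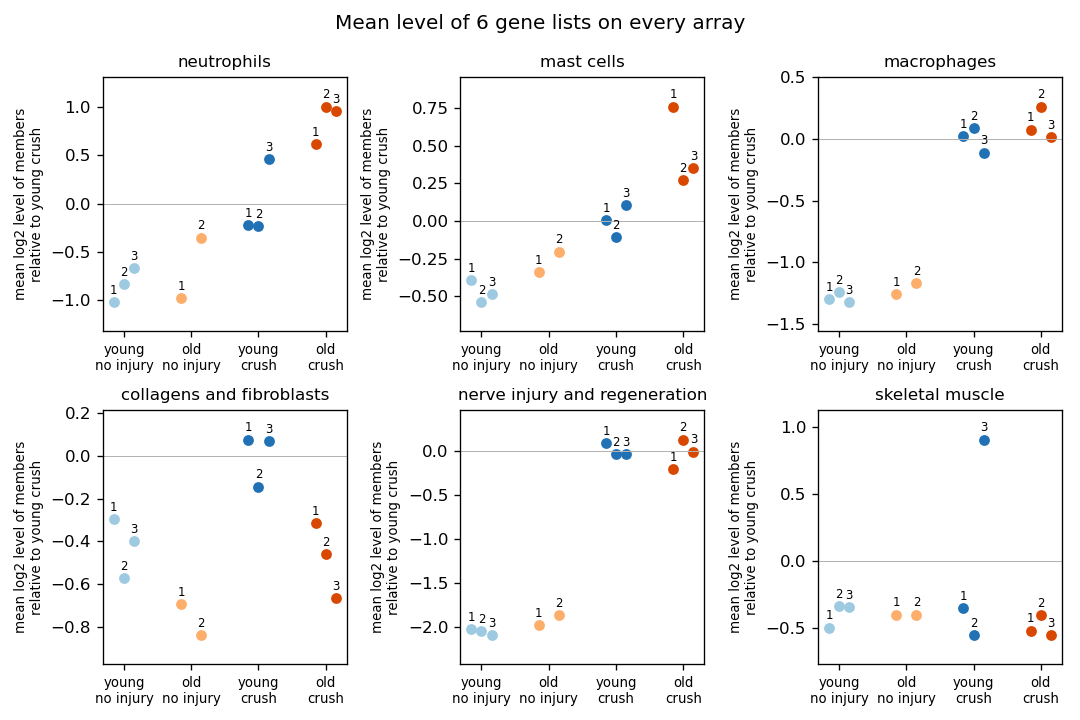
Mean log2 level of the measured members of 6 gene lists on each of the 11 arrays, relative to the mean of the 3 young crush arrays; numbers beside the points are the replicate numbers. Neutrophil genes are higher on all old crush arrays (0.61 to 1.00) than on the young ones (-0.24 to 0.46), collagen and fibroblast genes are lower, and the muscle genes of young crush 3 stand apart at 0.91.

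In old crushed ganglia 4 genes of the extracellular matrix were lower. Lox, the enzyme that cross-links collagen and elastin, measured 9.82, 9.62 and 9.88 in young and 8.72, 8.28 and 8.11 in old. The difference was -1.41 ± 0.20, a level 2.65-fold higher in young (adjusted p = 0.0122). Col26a1, a collagen gene, measured 8.82, 8.77 and 8.75 in young and 7.81, 7.54 and 7.57 in old, a difference of -1.14 ± 0.09 (adjusted p = 0.000308). Its young arrays lay within 0.1 of each other. Vtn, the adhesive plasma and matrix protein vitronectin, measured 10.12, 10.21 and 10.20 in young and 9.36, 9.13 and 8.87 in old, by -1.06 ± 0.14 (adjusted p = 0.00714). Spon2, a secreted matrix protein, was lower by -0.84 ± 0.12 (adjusted p = 0.0127). Col26a1 and Vtn stayed past the threshold without any single array, but Vtn missed it under median scaling (adjusted p = 0.0957). Lox missed it without young crush 1 or old crush 2 or 3 (-1.58 to -1.28), and Spon2 without young crush 1 or old crush 3 (-0.91 to -0.73).

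Among 19 measured collagen and fibroblast genes, Lox was the only one called, 17 had differences below 0 and 9 were lower at an unadjusted p under 0.05, where 2.56% of all genes were. The median was -0.47, and -0.31 without injury. The collagen VI gene Col6a1 gave -0.88 ± 0.19 (adjusted p = 0.137) and the collagen I genes Col1a1 and Col1a2 -1.09 and -0.81. Col1a1 measured 10.65 on old crush 1, within the young values of 10.53, 10.21 and 11.09, but 9.004 and 8.90 on the other old arrays. Without old crush 1, 4 genes of the list were called (Lox, Col1a1, Col6a1 and Col15a1), 14 had an unadjusted p under 0.05 and the median was -0.55. Without young crush 3, 2 were called (Lox and Col3a1) and the median was -0.36. Meningeal and choroid markers, which a ganglion dissected with its sheath may carry, gave 0 calls of 8 and a median of -0.24. Of the 8, 6 had differences below 0, where 52.3% of all genes were above 0. At an unadjusted p under 0.05, 3 were lower, against 2.56% of all genes. The prostaglandin synthase gene Ptgds gave -1.20 ± 0.38 (adjusted p = 0.533).

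Among genes of smooth muscle or vessels, 2 were lower in old. Actg2, smooth muscle γ-actin, measured 7.70, 7.28 and 7.81 in young and 6.77, 6.53 and 6.76 in old, a difference of -0.91 ± 0.15 (adjusted p = 0.0357), or -0.58 without background correction. Aoc3, the amine oxidase VAP-1 of smooth muscle, fat and endothelium, gave -0.69 ± 0.12 (adjusted p = 0.0454). Of 10 measured pericyte and smooth muscle markers none passed. The nearest was the smooth muscle actin gene Acta2 at -0.69 ± 0.15 (adjusted p = 0.146), and the median of the list was -0.15. Of 14 endothelial markers none passed, with a median of -0.02. Of all genes 52.3% had differences above 0. All 14 skeletal muscle markers had differences below 0, none of them called, and their median of -0.38 became -0.02 without young crush 3. That list had a summed level of 12.9 to 13.7 in young and 12.6 to 12.8 in old on the log2 scale, and its part in the difference of Actg2 was not tested. Without young crush 3, Actg2 measured -0.80 with an adjusted p of 0.146. Actg2 also missed the threshold without young crush 1, old crush 2 or 3 or any young naive array (-1.07 to -0.80). Aoc3 kept it only without young naive 1 or old crush 1 (-0.74 to -0.59).

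Glial genes were represented by Pmp2 and Ednrb. Pmp2, a fatty acid binding protein of peripheral myelin, measured 10.40, 10.04 and 10.53 in young and 8.80, 9.25 and 8.58 in old. It had the largest decrease, -1.45 ± 0.22, which is 2.73-fold higher in young (adjusted p = 0.0184). Ednrb, the endothelin B receptor of satellite glia and melanocytes, measured 12.84, 12.79 and 12.88 in young and 11.996, 12.38 and 12.05 in old, a difference of -0.69 ± 0.12 (adjusted p = 0.0455). Its other probes gave -1.35 and -0.73. When all probes were tested none of the 3 passed, with an adjusted p of 0.0595 for the main probe and for the first of the others. Pmp2 missed the threshold without young crush 1 or 3 or old crush 3 (-1.64 to -1.30), and Ednrb kept it only without young naive 1 or old crush 2 (-0.81 to -0.62) and in 6 of the 11 planned settings.

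No other myelin gene was called. None of 13 myelin genes passed, 4 were lower at an unadjusted p under 0.05 (2.56% of all genes were), and the median was -0.14. Fa2h, which makes the hydroxylated fatty acids of myelin lipids, gave -0.60 ± 0.14 (adjusted p = 0.175) and Ugt8a, which makes galactocerebroside, -0.56. Mbp measured 14.34, 14.16 and 14.28 in young and 14.35, 14.31 and 14.21 in old, a difference of 0.03 with a 95% interval from -0.17 to 0.22. Other probes of Mbp gave 0.14 and -0.95, and neither passed. The last of them measured 9.30 on old crush 1 and 11.53 to 12.22 on the other crush arrays. Of 10 satellite glia markers Ednrb was the 1 called, and the median was -0.12. The gap junction gene Gja1 gave -0.34 ± 0.09 (adjusted p = 0.288). The 10 repair Schwann cell genes had 0 calls and a median of -0.02.

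**Figure D3:**
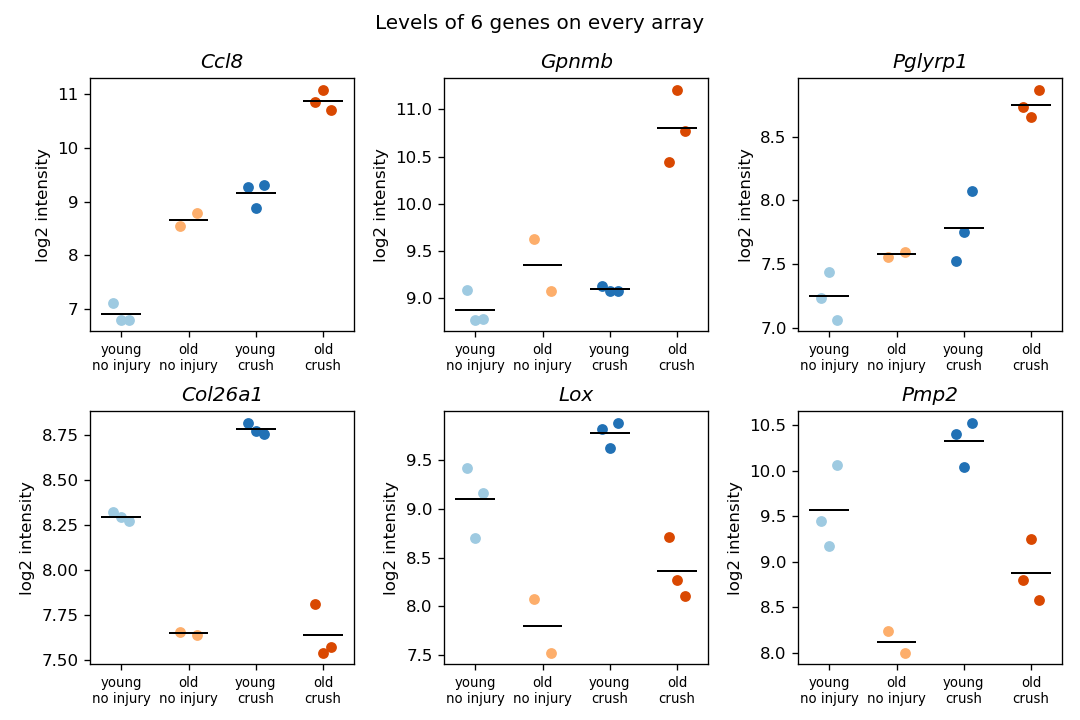
Log2 intensity of 6 genes on each of the 11 arrays, with a bar at each group's mean, for ganglia without injury (light) and after crush (dark) from young (blue) and old (orange) mice. Ccl8, Lox and Pmp2 differ with age to a like extent in both states, and the ages lie further apart after crush than without injury in Gpnmb (1.71 and 0.47) and Pglyrp1 (0.97 and 0.33).

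Several genes of metabolism were higher in old ganglia. Acer2, an alkaline ceramidase that releases sphingosine in the Golgi, measured 8.42, 8.21 and 8.16 in young and 9.20, 9.46 and 9.38 in old, a difference of 1.09 ± 0.13 (adjusted p = 0.00413). Azgp1, the secreted zinc-α2-glycoprotein with a role in lipid mobilization, measured 6.35, 6.51 and 6.41 in young and 7.38, 7.64 and 7.53 in old, also 1.09 ± 0.13 (adjusted p = 0.00423). A second probe of Azgp1 gave 0.01. Hsd11b1, which regenerates active glucocorticoid, gave 0.76 ± 0.11 (adjusted p = 0.0105), and its other probes that passed the filter gave 0.68 and 0.63, the first of them also past the threshold when all probes were tested. Mgarp, a mitochondrial protein known from steroid-producing cells, gave 0.87 ± 0.11 (adjusted p = 0.00714). Azgp1 and Mgarp were dim in young ganglia, at the 27.4th and 35.6th percentile of all probes, and without background correction they gave 0.66 and 0.54. Acer2 and Azgp1 stayed past the threshold without any single array. Mgarp missed it without young crush 1 (0.82, adjusted p = 0.0553), and Hsd11b1 missed it without any one of young crush 1 and 2 and old crush 2 and 3 (0.70 to 0.83).

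A further 4 genes higher in old belong to families of related gene copies, whose transcripts a probe may share. Whether these probes do so was not tested. Csprs, from a repeated gene cluster, measured 6.41, 6.42 and 6.40 in young and 7.83, 7.499 and 7.54 in old, a difference of 1.21 ± 0.16 (adjusted p = 0.00714). Vmn1r181, a vomeronasal receptor gene, measured 6.93, 6.91 and 6.83 in young and 7.87, 7.87 and 7.72 in old, a difference of 0.93 ± 0.09 (adjusted p = 0.00129). Both were dim in young, at the 26.7th and 45.3rd percentile of probes. Csprs gave 0.75 without background correction, and Vmn1r181 0.60 in the authors' processed values. Serpina1e, of the α1-antitrypsin family, gave 0.81 ± 0.14 (adjusted p = 0.0367), and the protocadherin gene Pcdhb3 0.64 ± 0.11 (adjusted p = 0.0357). Vmn1r181 stayed past the threshold without any single array and Csprs missed it without young crush 1 (adjusted p = 0.0514). Serpina1e kept it only without young naive 1 (0.73 to 0.88), and Pcdhb3 only without young naive 2 or old crush 3 (0.58 to 0.73).

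The remaining genes lower in old encode 2 transcription factors, a pigment enzyme and a small neuronal protein. Hoxb5, a homeobox gene that marks position along the body axis, measured 10.76, 10.71 and 10.79 in young and 10.08, 10.07 and 10.13 in old. Within each age the arrays lay within 0.1 of each other, and the difference was -0.66 ± 0.08 (adjusted p = 0.00423). Dbp, a clock-controlled transcription factor with a strong daily rhythm, measured 11.23, 11.15 and 11.50 in young and 10.57, 10.66 and 10.64 in old, a difference of -0.67 ± 0.11 (adjusted p = 0.0306). Tyrp1, an enzyme of melanin synthesis, measured 7.37, 7.84 and 8.03 in young and 6.82, 6.65 and 6.74 in old, a difference of -1.01 ± 0.14 (adjusted p = 0.0118). Its other probes gave -1.25 and -0.997, both past the threshold when all probes were tested, and the main probe gave -0.66 without background correction. Bex4, a brain-expressed X-linked gene, gave -0.58 ± 0.10 (adjusted p = 0.0374) and -0.20 on another probe. Hoxb5 stayed past the threshold without any single array but missed it under median scaling and with only the 2 groups fitted (adjusted p up to 0.115). Tyrp1 missed it without young crush 2 or old crush 2 or 3 (-1.20 to -0.87) and Bex4 in all 11 fits that left out 1 array (-0.63 to -0.50). Dbp missed it without any one of the 3 young naive arrays, young crush 1 or 3, or old crush 2 or 3 (-0.74 to -0.56).

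The age difference without injury was then set beside that after crush, with arrays that share no sample. Without injury 15 genes passed (0.13%), 9 higher in old (0.0781%) and 6 lower (0.052%). Of the 27 genes called after crush, 10 were also called there in the same direction, which is 37.0% of the crush calls and 66.7% of the calls without injury. These were Ccl8, Col26a1, Vmn1r181, Acer2, Hoxb5, Azgp1, Vtn, Csprs, Tyrp1 and Pcdhb3. All 27 had the same sign in both states, where 59.3% of all genes did, and on 23 the naive arrays did not overlap between the ages in that direction, against 27.3% of all genes in either direction. Both comparisons share each gene's variance estimate and the normalization. Across all genes the differences in the 2 states correlated at r = 0.341, with no p since genes are not independent replicates. The 27 were chosen by their difference after crush, where the median size was 0.91, against 0.69 without injury.

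For Ccl8, Pmp2, Ednrb, Lox, Vtn and Azgp1 the age difference was of similar size in both states. Ccl8 measured 7.11, 6.80 and 6.80 in young and 8.54 and 8.78 in old without injury, a difference of 1.76 ± 0.16 beside 1.73 after crush. Crush raised it by 2.25 in young and 2.22 in old, so that old uninjured ganglia stood just below young crushed ones. Pmp2 gave -1.44 without injury and -1.45 after crush, Lox -1.30 and -1.41, Vtn -1.08 and -1.06, Ednrb -0.70 and -0.69, and Azgp1 1.11 and 1.09. The other matrix genes, Col26a1 and Spon2, were closer together without injury (-0.65 and -0.46) than after crush (-1.14 and -0.84). Pmp2 and Lox were not called without injury (adjusted p = 0.0556 and 0.0616). Csprs was further apart without injury, at 1.84, and Tyrp1 at -1.48.

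For other genes the difference was larger after crush than without injury, by amounts that did not pass the adjusted test. Gpnmb measured 9.09, 8.77 and 8.78 in young and 9.63 and 9.08 in old without injury, where the ages overlapped and the difference was 0.47 ± 0.21 (adjusted p = 0.746). Crush then raised it by 1.45 in old (adjusted p = 0.000503), while the 0.22 in young did not pass (adjusted p = 0.487). The difference between its age differences was 1.24, with a 95% interval from 0.64 to 1.84 and an unadjusted p of 0.000746. It was 0.64 for Pglyrp1, 0.60 for Mmp9, 0.72 for Cd177 and 0.46 for Cd209b. For Actg2 it was -0.75 and for Col26a1 -0.49. Col26a1 rose by 0.48 after crush in young (adjusted p = 0.00288), whereas its change in old was -0.01 (adjusted p = 0.971). Together with Csprs (-0.63), these were the 8 of the 27 genes with an unadjusted p under 0.05 for that interaction, and they are named after their values were seen. The interaction contains the crush difference by which the 27 were chosen. Their unadjusted p-values and their count therefore cannot be weighed against the share of all genes. Over all genes 351 passed at that unadjusted p (3.04%), and 0 of 11529 (0%) at an adjusted p under 0.05 by limma, the smallest adjusted p being 0.999.

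**Figure D4:**
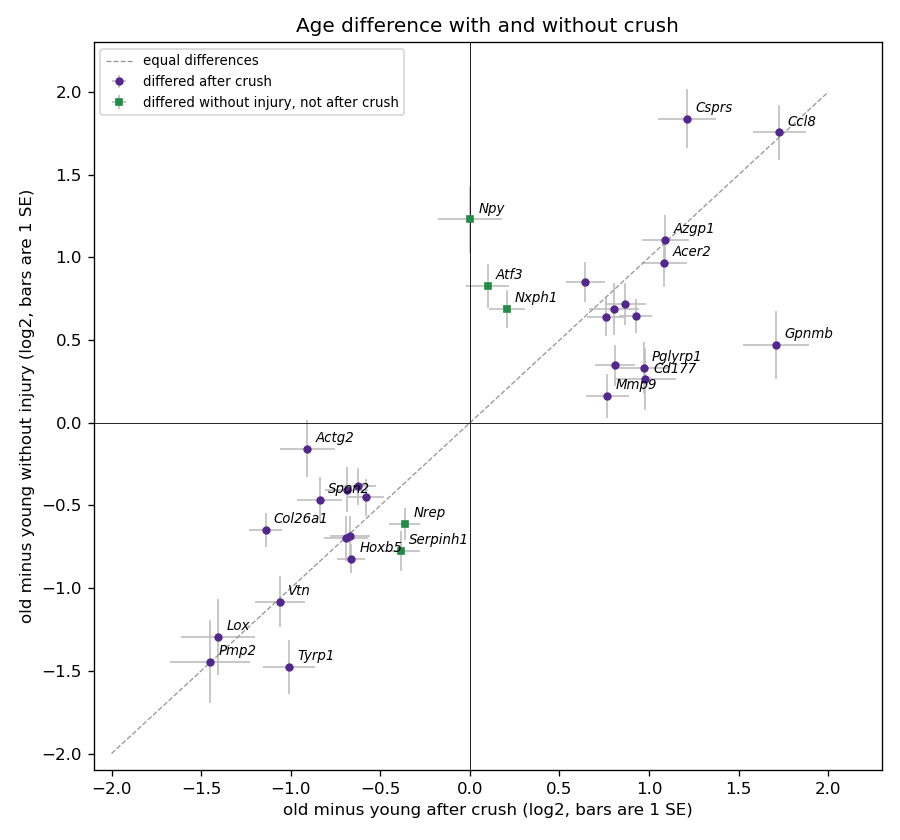
Old minus young after crush (x axis) against old minus young without injury (y axis), in log2 units with bars of 1 standard error, for the 27 genes called after crush (circles) and the 5 called only without injury (squares). Most circles lie near the dashed line of equal differences, Gpnmb lies far below it at 1.71 and 0.47, and Npy lies at 0.00 after crush and 1.23 without injury.

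Past the threshold without injury alone were 5 genes: Atf3, Npy, Nxph1, Nrep and Serpinh1. Atf3, a transcription factor switched on by axon injury, measured 7.44, 7.35 and 7.19 in young and 7.93 and 8.37 in old uninjured ganglia, a difference of 0.83 ± 0.13 (adjusted p = 0.037). After crush it measured 12.30, 12.43 and 12.37 in young and 12.44, 12.56 and 12.40 in old, a difference of 0.10 with a 95% interval from -0.16 to 0.36. The neuropeptide gene Npy showed the same arrangement. It differed by 1.23 ± 0.20 without injury (adjusted p = 0.0404) and by 0.00 after crush (95% interval -0.39 to 0.39), at 13.08, 12.71 and 12.96 in young and 12.60, 13.10 and 13.04 in old. Unadjusted interaction p-values were 0.00144 for Atf3 and 0.000635 for Npy, and neither passed after adjustment. After crush Nxph1, a secreted ligand of neurexins, gave 0.21, Nrep, a neuronal regeneration related protein, -0.36, and Serpinh1, the collagen chaperone HSP47, -0.38. All 15 genes called without injury had the same sign after crush, where 59.3% of all genes had the same sign in both states. For Npy and Atf3 the sign carries little, since their 95% intervals after crush include 0.

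None of the genes on the nerve injury and regeneration list was called between the ages after crush. Among all genes 0.234% were called, and 3.14% were higher and 2.56% lower at an unadjusted p under 0.05. Of the 43 measured members of the list, 0 were called in either direction by limma. At an unadjusted p under 0.05, 2 were higher and 1 lower, and the median difference of the list was -0.03. Single differences ran from -0.32 to 0.45. The 95% interval of 42 of the 43 lay within 1 log2 unit of 0, and that of 26 within 0.5. The highest were those of Wfdc3 (0.45, adjusted p = 0.652) and Socs3, an inhibitor of cytokine signalling (0.43, adjusted p = 0.817). Chl1, a cell adhesion molecule of the L1 family, had the smallest p, at -0.29 ± 0.10 (adjusted p = 0.633). Crush itself raised 36 of these genes in young and 34 in old, where 8.65% and 8.08% of all genes rose, with median responses of 1.54 and 1.65. The list was made of genes known for this response, with earlier results of these data known. Its high share of risen genes is therefore no test of the response.

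Levels did not overlap between the ages after crush in 9.27% of all genes, counting both directions. Of the 43 genes, 1 in each direction did not overlap. The lower was Chl1, at 9.36, 9.27 and 9.12 in young and 8.85, 8.95 and 9.08 in old. Another, dimmer probe of Chl1 that passed the filter overlapped and gave -0.01, and those below the filter gave 0.02 and -0.003. The genes that follow overlapped. Sprr1a, a small proline-rich protein of growing axons, measured 12.22, 12.01 and 11.65 in young and 11.26, 12.14 and 11.98 in old, a difference of -0.17 (95% interval -0.61 to 0.28). Gap43, a growth cone protein, gave -0.14 (95% interval -0.77 to 0.48), with the lowest value, 11.99, on old crush 1. Jun gave -0.02 (-0.30 to 0.26) and Gal, the neuropeptide galanin, 0.03 (-0.27 to 0.32). Cckbr and Gpr151, receptor genes that were dim without injury, gave -0.02 and 0.09. These intervals leave room for differences of the widths given and do not show that levels were equal.

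**Figure D5:**
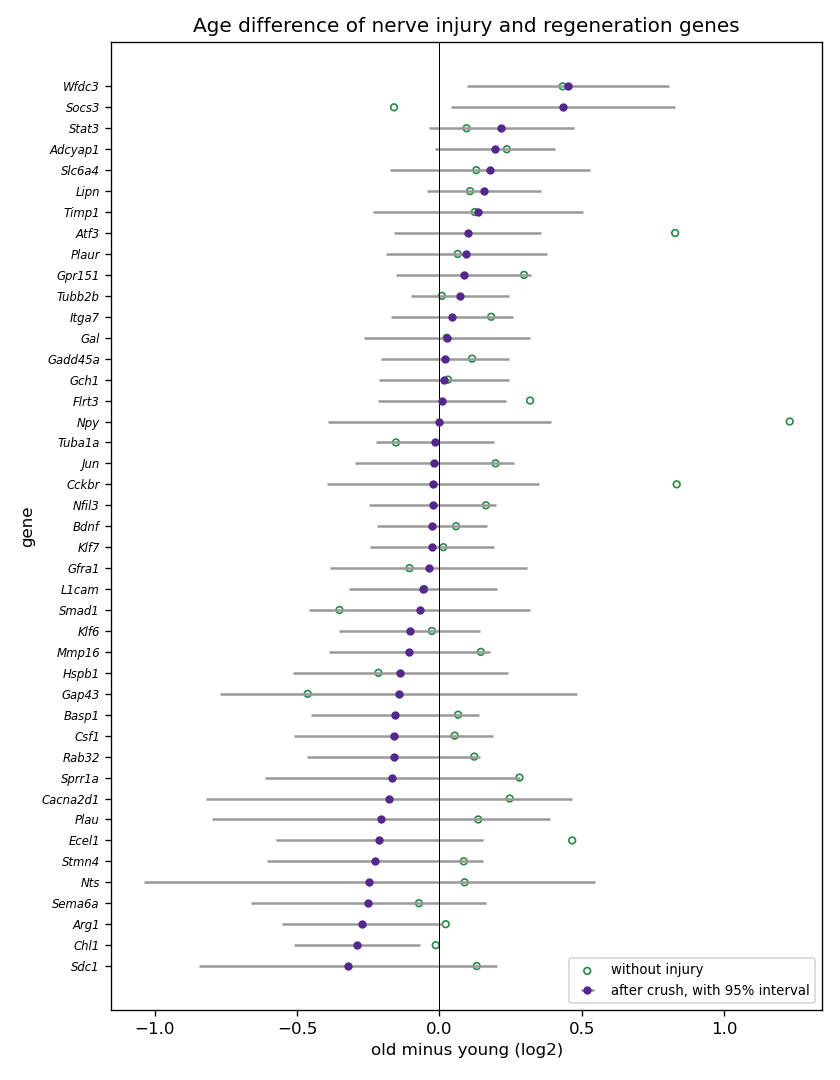
Old minus young, in log2 units, for the 43 measured nerve injury and regeneration genes after crush (filled, with the 95% interval) and without injury (open). After crush all differences lie between -0.32 and 0.45, whereas Npy, Cckbr and Atf3 lie at 1.23, 0.83 and 0.83 without injury.

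Neuronal lists had medians near 0. Of 23 channel and receptor genes of sensory neurons 0 were called, 0 had an unadjusted p under 0.05 by limma, and the median was -0.04. The ATP-gated channel gene P2rx3 had the smallest p, at -0.26 ± 0.14. The 16 cytoskeletal and pan-neuronal genes had a median of -0.01, with peripherin, Prph, at -0.29 ± 0.12 (adjusted p = 0.81). Among 14 neuropeptides and trophic receptors none passed. The neurotrophin receptor gene Ntrk3 gave 0.25 ± 0.09 (adjusted p = 0.594), and the median was 0.03.

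Antigen presentation and interferon genes had differences mostly above 0, with no call. Of all genes 52.3% had differences above 0, and 3.14% were higher at an unadjusted p under 0.05. Of 14 MHC class I and antigen processing genes 13 had differences above 0 and 3 an unadjusted p under 0.05, with a median of 0.24 (0.01 without injury). The class I gene H2-M3 measured 8.60, 8.57 and 8.68 in young and 9.16, 9.03 and 8.96 in old, a difference of 0.43 ± 0.10 (adjusted p = 0.213). The peptide transporter gene Tap2 also gave 0.43. Among 33 interferon response genes, 26 had differences above 0, 7 of them with an unadjusted p under 0.05, and the median was 0.11 (-0.13 without injury). The GTPase gene Igtp gave 0.54 ± 0.16 (adjusted p = 0.41). On old crush 1 the mean level of the interferon list was highest, 0.26, against 0.16 and 0.07 on the other old arrays and -0.07 to 0.07 in young. Without old crush 1, 4 members had an unadjusted p under 0.05 in the higher direction, and the median was 0.07.

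In the lists of other cells and processes no further gene was called. T and NK cell markers had a median of 0.11 over 12 genes, B and plasma cell markers 0.06 over 10 and MHC class II genes 0.03 over 7. Among all genes 52.3% were above 0 and 3.14% were higher at an unadjusted p under 0.05. Proliferation genes had a median of 0.13 over 16 genes, with 14 above 0 and 2 of them higher at that unadjusted p. Tyms, thymidylate synthase, had the smallest p, at 7.61, 7.72 and 7.71 in young and 7.87, 8.16 and 8.02 in old, a difference of 0.33 ± 0.10 (adjusted p = 0.483), and 0.42 without both bright arrays. Its other probes that passed the filter gave 0.09, 0.08 and -0.29. The spindle protein gene Prc1, which rose with crush at both ages, measured -0.07. Of 10 ageing and senescence genes Gpnmb alone passed, and the median was 0.10. The 19 lysosomal genes had a median of 0.02, 14 cholesterol synthesis genes -0.05 and 22 oxidative phosphorylation genes -0.04. Medians of the 13 immediate early and heat shock genes, 11 bone and cartilage markers, 5 markers of central glia and 3 adipocyte markers were -0.01, -0.07, -0.02 and -0.41. The adipocyte median was -0.21 without old crush 1. The members with the smallest p in these lists did not pass either. They were -0.43 for the protease gene Ctsk, 0.25 for the interleukin 7 receptor gene Il7r, -0.32 for Sdc1 and -0.31 for H2-DMb1.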

How the data were processed

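Non-normalized probe intensities, on a linear scale, were deposited by the authors for 25697 probes, together with processed intensities of the same arrays. The submitters' processing notes name RMA, version not given. Neither the scanner settings nor an earlier background subtraction is given in the sources used here. Without detection p-values the distance of dim genes from background is unknown. The processed intensities kept each array's ranks, had a median of 211 on every array, are uncentred, and served as an alternative. They differed by at most 1.47% from quantile-normalized log2 intensities without background correction. They are therefore no separate check from the setting without that correction. Among the non-normalized columns, 1 matches no labelled sample and was left out. Its header reads as old naive array 3, and the values without injury rest on the 2 labelled old naive arrays.

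Intensities were corrected with normexp (offset 50), quantile-normalized and put on the log2 scale with limma 3.58.1 (R 4.3.3). The filter kept 17086 probes, those brighter than the 40th percentile on 2 or more arrays, so a gene bright only in old ganglia was kept. The platform annotation named 1 gene for 23978 probes, several for 0 and none for 1719. Symbols were updated through RefSeq GRCm38.p6 by Entrez identifier (23962), by accession (9) or kept (7). The probe with the highest mean stood for a gene, which left 11529 genes.

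One limma model (lmFit, eBayes) with 4 group means over all 11 arrays (7 residual and 5.18 prior degrees of freedom) gave every contrast, two-sided, adjusted by Benjamini-Hochberg over all genes with a threshold of 0.05. The number of arrays limits the precision: the median standard error was 0.12 after crush, and for 99.0% of genes the 95% interval lay within 1 log2 unit of 0. Named were the called genes without overlap between the ages (up to 15 in each direction), a fixed set (Atf3, Gal, Gap43, Jun, Mbp, Npy, Sprr1a), and from each list up to 6 called members or the 1 with the smallest p. Further members given with values were picked after those values were seen. The arrays compared and the gene lists were chosen with earlier results of these data known. Alternatives are given in the closing part. The procedure was tested on simulated data.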

Additional observations from a re-analysis of the deposited data

Results flagged for a closer look

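Des, which encodes the intermediate filament desmin of muscle cells, was lower in old ganglia after crush (-0.43) and higher in old ganglia without injury (0.18), with no overlap between the ages in either state. Of all genes, 9.27% did not overlap after crush and 27.3% did not overlap without injury, in either direction. After crush Des measured 7.41, 7.14 and 7.57 in young and 6.90, 6.88 and 7.04 in old. Its highest value was on young crush 3, the array with the high level of muscle genes. Without that array the difference after crush was -0.33 (limma adjusted p = 0.677). Without injury it measured 7.05, 7.21 and 6.94 in young and 7.24 and 7.25 in old. The age difference after crush minus that without injury was -0.61, with a 95% interval from -0.999 to -0.22. It did not pass limma's test after adjustment over all genes (adjusted p = 0.999). Neither age difference was called (adjusted p = 0.357 after crush and 0.87 without injury).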

How the results depend on the processing

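The 27 calls after crush (14 higher, 13 lower), the 15 without injury and the 10 shared between them depended on the setting. Median scaling gave 12 calls (8 higher, 4 lower), 3 without injury and 3 shared. A stricter filter gave 8 (1 higher, 7 lower), 3 and 2, and tested only 9 of the 27 genes. Fitting only the groups compared gave 12 (8 and 4), 2 and 1, and array weights gave 58 (29 and 29). Leaving out the 2 brightest arrays, young crush 3 and old crush 1, an alternative chosen after seeing the data, gave 34 calls with 24 higher, 17 of them among the 27. Leaving out 1 array gave 10 to 45 calls after crush (10 without young crush 1, 45 without old crush 1), with 6 to 21 higher and 3 to 24 lower, 2 to 23 without injury and 2 to 13 shared. The interaction had 0 calls in each of these that fitted all 4 groups. No background correction, cyclic loess, the authors' processed values, no filter, all probes and the trended variance model gave 24 to 31 calls. Called in every planned setting that tested them and without every single array were 7 genes: Ccl8, Col26a1, Vmn1r181, Acer2, Gpnmb, Azgp1 and Cd209b. Of these the stricter filter tested only Gpnmb. No difference of a named gene past the threshold changed sign in any fit. Same-numbered crush arrays deviated together at r = -0.37, 0.14 and -0.25, so the numbers were not taken to pair samples. With a replicate block, 31 genes were called after crush, 24 of them among the 27, with 6 without injury and 6 shared. Sizes also moved: 6 of the 27 differences were over 1.5 times smaller without background correction (Actg2, Azgp1, Cd209b, Csprs, Mgarp and Tyrp1), and 7, those and Vmn1r181, in the authors' processed values. Of the 27, 5 lay below the 50th percentile of probes in young, and their distance from background is unknown.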

Other observations

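Because Dbp, Hoxb5 and Tyrp1 were among the genes lower in old crushed ganglia, 3 lists were added after their values were seen, and they are given as values only. Of 11 measured clock genes Dbp alone passed, with a median of -0.08. The repressor gene Nr1d1 measured -0.31, the Dbp relative Tef -0.17, Ciart -0.17 and Per1 -0.01. The hour of tissue collection is not given in the labels.

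Of 30 measured Hox genes Hoxb5 alone passed, both after crush (-0.66) and without injury (-0.82), with a median of -0.09 after crush. Of the 30, 24 had differences below 0 after crush, where 52.3% of all genes were above 0. At an unadjusted p under 0.05, 4 were lower, against 2.56% of all genes. The neighbours of Hoxb5 in the HoxB cluster, Hoxb4 and Hoxb6, measured -0.40 (adjusted p = 0.831) and 0.13. Only 3 of the listed melanocyte genes were measured, of which Tyrp1 alone passed, the other 2 were above 0, and the median was 0.13.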
